A study of Caenorhabditis elegans with 6 samples.

Results

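The 7 genes described here encode the core of the microRNA (miRNA) pathway of *Caenorhabditis elegans*: the nuclear processing enzyme DRSH-1 (Drosha) with its partner PASH-1 (Pasha), the cytoplasmic processing enzyme DCR-1 (Dicer), the Argonautes ALG-1 and ALG-2, and the GW182-like proteins AIN-1 and AIN-2. They were chosen by name from the 31180 genes of the RNA-seq table, and each symbol matched 1 gene identifier. RNA came from whole animals of the wild-type strain N2 (Bristol) at the last larval stage (L4). All animals were fed OP50 bacteria at 20°C and synchronized. The HS animals were then moved to 35°C for 4 h, whereas the CTRL animals were left untreated, and 3 libraries were made per condition after removal of ribosomal RNA. The libraries are described as independent biological replicates.

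One value per gene was used, the authors' mean of the normalized counts over the 6 libraries, which gives equal weight to HS and CTRL. This value is the pooled mean. Values of single libraries, their depth and their spread were not analysed here, and no difference between HS and CTRL is given, since the remaining columns of the table hold the comparison made by the authors and were not used. The pooled mean has therefore no error attached, no test was run, and each ratio below is a description of these libraries. The pooled mean is scaled for library depth but not for gene length, so levels of different genes were compared per kb of exon, with all annotated exons of a gene merged, and the main ratios also per kb of coding sequence. Values without length scaling are given only to show how far the length measure matters. The 11 marker genes of muscle, pharynx, intestine, neurons, epidermis and germline had pooled means of 67.3 (*unc-119*, neurons) to 97339 (*unc-54*, body wall muscle). All 30963 genes with a position had a pooled mean above 0, so the presence of a marker alone is no check of the labelled tissue.

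An miRNA starts as a hairpin within a longer primary transcript. In the nucleus, Drosha and Pasha form the Microprocessor, which cuts the hairpin out, and in the cytoplasm Dicer removes its loop to leave a short duplex. An Argonaute keeps the guide strand of the duplex and pairs it with target mRNAs, and a GW182-like protein bound to the Argonaute recruits the enzymes that shorten the poly(A) tail and repress the mRNA. In *C. elegans* this pathway is known for timing larval development through miRNAs such as *lin-4* and *let-7*.

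The levels of the 7 genes ranged from near the median protein-coding gene to above the upper quartile. Per kb of exon, *ain-2* had the highest level, 652.7 normalized counts, followed by *dcr-1* with 524.5, *pash-1* with 325.1, *drsh-1* with 309.3, *ain-1* with 276.2, *alg-1* with 111.3 and *alg-2* with 88.4. The highest level was 7.39 times the lowest. For comparison, the median of 18768 protein-coding genes was 97.3 normalized counts per kb, with an upper quartile of 406. Thus 6 of the 7 genes lay above the median, 2 of them (*ain-2* and *dcr-1*) also above the upper quartile, and *alg-2* lay below the median. Of the 18768 genes, 14316 had a pooled mean of at least 10. *alg-1* was at percentile 52.0 only, so its place above the median depends on the genes with lower counts in this background. Per kb of coding sequence, *alg-2* lay just above the median instead, with 134.1 against 128.0 normalized counts. The median percentile of the 7 genes among protein-coding genes was 69.6. Their pooled means added up to 8856 normalized counts, or 0.0565% of the sum over protein-coding genes. The order of neighbouring genes could not be set against a spread between libraries.

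**Figure D1:**
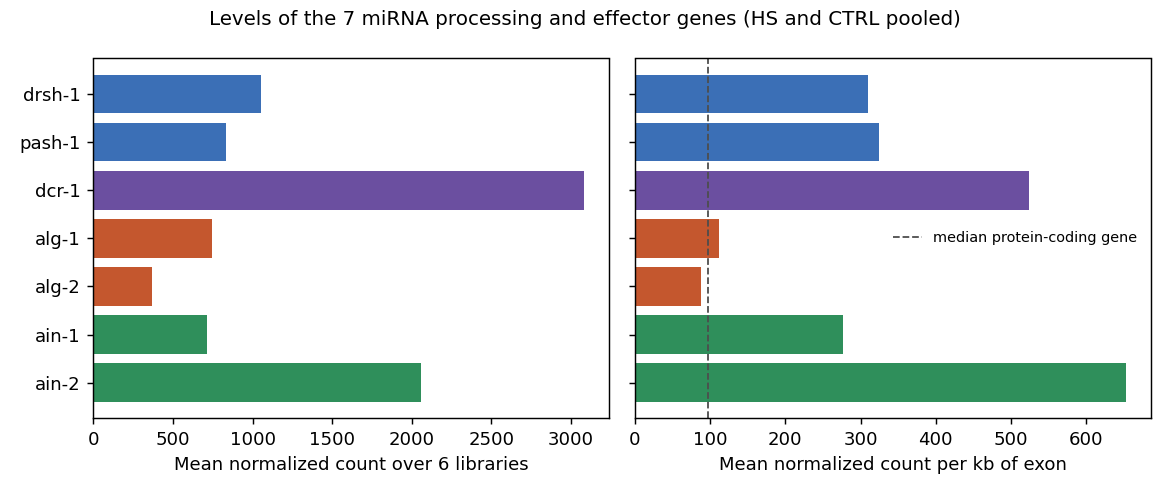
The left panel plots the pooled mean of each gene over the 6 libraries, and the right panel the same value per kb of merged exons, with 1 bar per gene and no error bars because single libraries were not used. *dcr-1* has the longest bar on the left with 3085 normalized counts, whereas *ain-2* has the longest bar on the right with 652.7 per kb, and only *alg-2* stays left of the dashed median of protein-coding genes at 97.3 per kb.

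The Microprocessor subunits were close to each other in level. *drsh-1* (WBGene00009163), which encodes the RNase III enzyme that cuts primary miRNA transcripts, lies on the minus strand of chromosome I from 9781324 to 9785724 (WBcel235) and has 8 exons with a merged length of 3410 bp. Its pooled mean was 1054.8 normalized counts, at percentile 69.6 of protein-coding genes per kb. *pash-1* (WBGene00011908), which encodes the double-stranded RNA-binding partner of Drosha known as DGCR8 in mammals, lies on the plus strand of the same chromosome from 10598673 to 10606621 and has 11 exons that add up to 2566 bp. Its pooled mean was 834.1 normalized counts, at percentile 70.6. The ratio of *drsh-1* to *pash-1* was 0.952 per kb of exon and 0.874 per kb of coding sequence. Before scaling for length it was 1.26, so which of the pair had the higher value depended on the length measure.

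The surroundings of this pair differed. The start of *drsh-1* lies 56 bp downstream of the end of *tba-1*, an alpha-tubulin gene on the same strand with 4755 normalized counts per kb. The authors report that in HS, transcripts of some strongly induced genes continued into a downstream gene on the same strand. Whether this applies to *tba-1* and *drsh-1* was not tested. At its 3' end, *drsh-1* shares 90 bp, or 2.64% of its exons, with *gpx-1*, a glutathione peroxidase gene on the opposite strand whose pooled mean was 331.4 normalized counts. Another 74 bp, or 2.17%, are shared with F26E4.18, a non-coding RNA gene on the opposite strand with a pooled mean of 0.231. The libraries were stranded, but the strand setting of the counting is not given in the sources used here, so the assignment of reads from these shared bases is uncertain. *pash-1* starts 183 bp downstream of T22A3.6, which had 37.8 normalized counts per kb. The introns of *pash-1* contain the miRNA gene *mir-1828* on the same strand (63 bp, from 10600463 to 10600525) and 3 tRNA genes. None of these shares an annotated base with a *pash-1* exon. Of the tRNA genes, only WBGene00014526 lies on the same strand as *pash-1*. The authors report that longer forms of intronic tRNAs in HS sometimes reached exons, and whether this applies to *pash-1* was not tested. The pooled mean of *mir-1828* was 0.345 normalized counts, in libraries that are not made for small RNAs.

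*dcr-1* (WBGene00000939) encodes the RNase III enzyme that processes miRNA precursors and, with other partners, long double-stranded RNA. It lies on the minus strand of chromosome III from 8071967 to 8080281, with a single annotated transcript of 27 exons and 5883 bp, the most exons of the 7 genes. Its pooled mean of 3085.3 normalized counts was the highest before scaling for length, and its level per kb stood at percentile 80.3 of protein-coding genes. Coding sequence made up 97.4% of its exons, so its level changed little between measures, to 538.5 normalized counts per kb of coding sequence. Per kb of exon, *dcr-1* had 1.70 times the level of *drsh-1* and 1.61 times that of *pash-1*. No annotated gene overlapped *dcr-1*.

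The miRNA Argonautes had the lowest levels of the 7 genes per kb. *alg-1* (WBGene00000105) lies on the plus strand of chromosome X from 13949110 to 13956261 and had a pooled mean of 744.9 normalized counts, at percentile 52.0 per kb. *alg-2* (WBGene00000106) is on chromosome II, plus strand, 873212 to 879885, and had a pooled mean of 366.1 normalized counts, at percentile 48.5 per kb. Both genes load the bulk of miRNAs in the soma and overlap in function. The ratio of *alg-1* to *alg-2* was 1.26 per kb of merged exons, and *alg-1* made up 55.7% of their summed level. Because the genes are closely related in sequence and the treatment of reads that map to both is not given in the sources used here, this ratio is uncertain in either direction. If such reads were left out, both levels would be too low. This limit holds for every comparison of *alg-1* or *alg-2* with other genes, here and below, and its size was not tested.

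The Argonaute ratio also depended on the part of the gene model taken as its length. Only 45.8% of the merged *alg-1* exons are coding, against 65.9% for *alg-2*. In *alg-1*, 1691 bp of annotated exon lie between the first coding exon of some *alg-1* transcripts and the coding part that follows, and another 1557 bp after the coding part, whereas *alg-2* has 1412 bp after its coding part and no such inner stretch. Per kb of coding sequence *alg-1* had 242.7 and *alg-2* 134.1 normalized counts, a ratio of 1.81, and *alg-1* then made up 64.4% of the sum. Per kb of exon, of the longest transcript and of coding sequence, *alg-1* and *alg-2* kept the sixth and the seventh place among the 7 genes, whereas without length scaling *alg-1* (744.9 normalized counts) was above *ain-1* (715.8). A snoRNA gene, K02B9.10, lies within the exons of *alg-1* on the same strand (96 bp) and had a pooled mean of 28.1 normalized counts. The authors also report longer forms of snoRNAs in HS, and whether this applies to K02B9.10 was not tested.

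**Figure D2:**
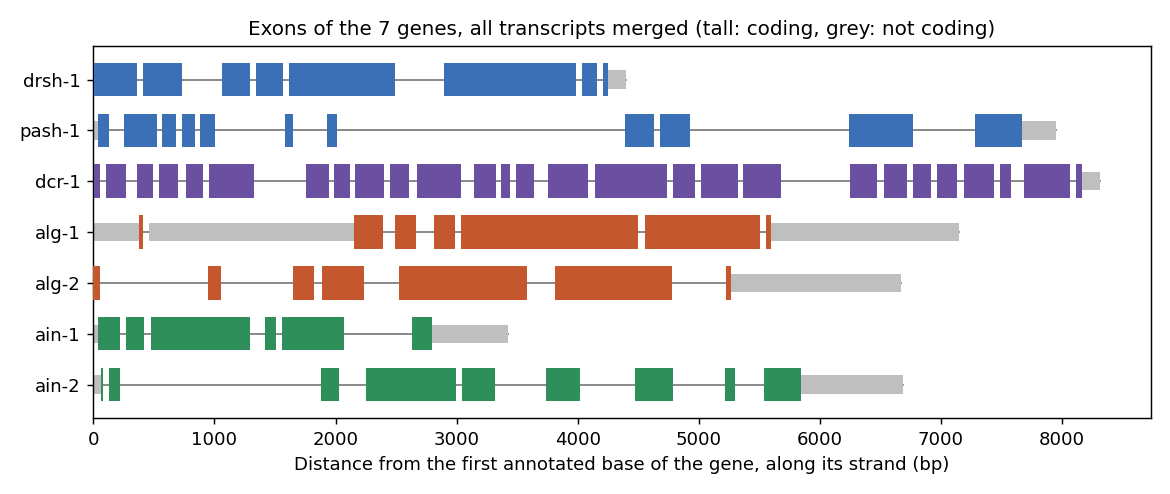
The gene models are drawn to scale along each gene's own strand, in bp from its first annotated base, with coding exons as tall coloured blocks, exon parts without coding annotation as low grey blocks, and introns as lines. *alg-1* stands apart by its grey stretch of 1691 bp ahead of the main coding part, and *dcr-1* by its 27 exons.

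The GW182-like genes differed more from each other than the other pairs. *ain-1* (WBGene00015547), whose product binds the miRNA Argonautes and brings them to their targets' repression machinery, lies on the plus strand of chromosome X from 16613451 to 16616871 in 6 exons. Its pooled mean was 715.8 normalized counts, at percentile 67.5 per kb. *ain-2* (WBGene00015007), which encodes a related Argonaute partner with overlapping function, lies on the plus strand of chromosome I from 4653467 to 4660153, with 8 annotated transcripts. Its pooled mean was 2055.4 normalized counts, at percentile 84.6 per kb. The ratio of *ain-1* to *ain-2* was 0.423 per kb of exon, and it ranged only between 0.348 and 0.423 over the length measures. *ain-2* thus had the higher level throughout, and *ain-1* contributed 29.7% of the summed level of the pair.

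**Figure D3:**
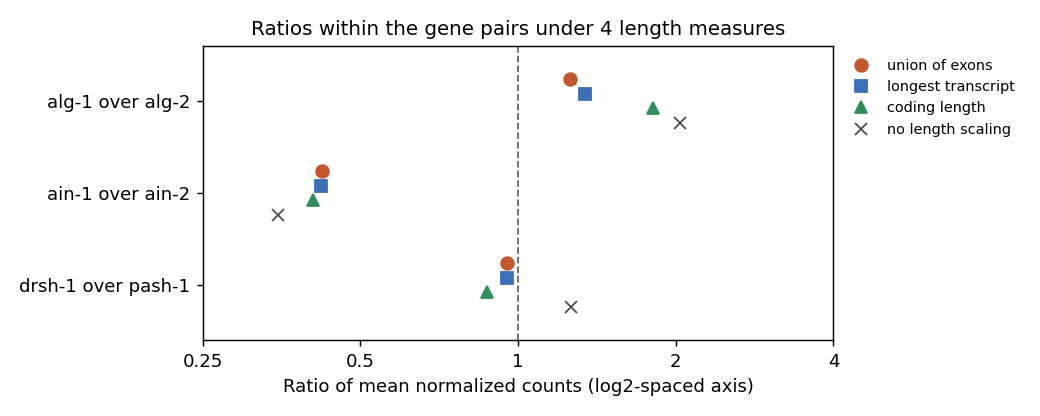
Ratios of the pooled means within each pair are plotted on a log2-spaced axis, with 1 symbol per length measure and a dashed line at equal levels. The *ain-1* to *ain-2* ratio stays left of the line between 0.348 and 0.423, the *alg-1* to *alg-2* ratio stays right of it between 1.26 and 2.03, and the *drsh-1* to *pash-1* ratio lies on both sides, between 0.874 and 1.26.

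Between the classes, the transcripts of *ain-1* and *ain-2* were higher per kb than those of *alg-1* and *alg-2*. The Argonaute gene *alg-5*, described below with the lists, is not in this comparison. It had 609.2 normalized counts per kb of exon and 696.7 per kb of coding sequence. *ain-1* and *ain-2* together had 928.9 normalized counts per kb, against 199.6 for *alg-1* and *alg-2* together, a ratio of 4.65. Per kb of coding sequence the sums were 1288 and 376.8 normalized counts, with a ratio of 3.42. The difference was smaller for *ain-1* alone. It had 2.48 times the level of *alg-1* per kb of exon, 1.53 times per kb of coding sequence and 0.961 times without length scaling. Against *alg-2* these ratios were 3.12, 2.78 and 1.96. *dcr-1* had 4.71 times the level of *alg-1* and 5.93 times that of *alg-2* per kb of exon, and 2.22 and 4.02 times per kb of coding sequence. These are ratios of mRNA and say nothing about the amounts of protein. Each of them includes *alg-1* or *alg-2*, so the limit on shared reads applies.

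The 7 genes were then set beside 33 other genes in 4 lists of the miRNA pathway and its surroundings. None of the 33 genes had a level per kb below that of *alg-2*, and 32 were above *alg-1*. Of the 33 genes, 13 were above *dcr-1* and 9 were above *ain-2*. Per kb of coding sequence, 1 gene (*ebax-1*) was below *alg-2*, 32 were above *alg-1*, 21 were above *dcr-1* and 11 were above *ain-2*. The list genes were not drawn at random from the genome but chosen with earlier results of these data known. No test of a list was made.

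The 5 partners of Dicer in double-stranded RNA pathways had a median of 473.7 normalized counts per kb, at a median percentile of 78.3. The highest was *rde-4*, which encodes the double-stranded RNA-binding protein that acts with Dicer in RNA interference, with 932.7 normalized counts per kb or 1.78 times the level of *dcr-1*. The lowest was *eri-1*, an exonuclease gene of endogenous siRNA pathways, with 282.4. The Argonaute gene of exogenous RNA interference, *rde-1*, had 473.7 normalized counts per kb, which was 4.26 times the level of *alg-1* per kb of exon and 2.05 times per kb of coding sequence. The Dicer-related helicase genes *drh-1* and *drh-3* had 469.6 and 604.3 normalized counts per kb.

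The 7 genes listed as cofactors of the miRNA-induced silencing complex (miRISC) include *alg-5*, which is itself an Argonaute gene. This list had the highest median of the 4 lists, 2674 normalized counts per kb, and 5 of the 7 genes were above *ain-2*. The highest was *rack-1*, a ribosome-bound scaffold protein gene, with 38723 normalized counts per kb, and *vig-1*, *cgh-1* (an RNA helicase of the DDX6 family) and *tsn-1* (a Tudor nuclease) had 5359, 2698 and 2674. RACK-1, CGH-1 and TSN-1 also act outside the miRNA pathway. The lowest was the TRIM-NHL gene *nhl-2* with 433.9. *alg-5*, an Argonaute gene whose product binds miRNAs in the germline, had 609.2 normalized counts per kb. That was 5.48 times the level of *alg-1* and 6.89 times that of *alg-2* per kb of exon, and 2.87 and 5.20 times per kb of coding sequence. Germline marker genes were high in these animals, with 2615 normalized counts per kb for *glh-1* and 2781 for *pgl-1*, and their part in the level of *alg-5* was not tested. In whole animals, more cells of a type and more RNA per cell cannot be told apart.

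The 7 genes of precursor control and miRNA turnover had a median of 422.8 normalized counts per kb of exon, against 309.3 for the 7 core genes, and none of them was above *ain-2* on this scale. This was the lowest median of the 4 lists per kb of exon, but per kb of coding sequence the Dicer partners had the lower median, 498 against 518 normalized counts. *paxt-1*, the partner of the exonuclease XRN-2, was the highest with 650.3 normalized counts per kb, and *xrn-2* itself had 494.8, or 0.944 times the level of *dcr-1*. The lowest was *ebax-1*, which encodes a ubiquitin ligase adaptor related to mammalian ZSWIM8, with 110.1. It was the only one of the 33 genes below *alg-1*, by a narrow margin per kb of exon (111.3 for *alg-1*). *lin-28*, which blocks maturation of *let-7*, had 246.5 normalized counts per kb, and *pup-2*, a poly(U) polymerase gene, had 434.7.

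The 14 genes of deadenylation and decapping, the machinery that GW182-like proteins recruit, had a median of 491.6 normalized counts per kb. All 14 were above the median protein-coding gene and above *alg-1*, and 3 were above *ain-2*. These were *pab-1*, the main cytoplasmic poly(A)-binding protein gene, with 14741 normalized counts per kb, *let-711*, the scaffold of the CCR4-NOT deadenylase, with 1249, and *patr-1*, a decapping activator gene, with 1123. The catalytic deadenylase genes *ccf-1* and *ccr-4* had 429.4 and 513.1 normalized counts per kb, and *ntl-9*, whose homologs contact GW182 proteins, had 429.0. The decapping genes *dcap-1* and *dcap-2* had 364.6 and 279.4. The lowest was *panl-3*, of the PAN2-PAN3 deadenylase, with 271.7.

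**Figure D4:**
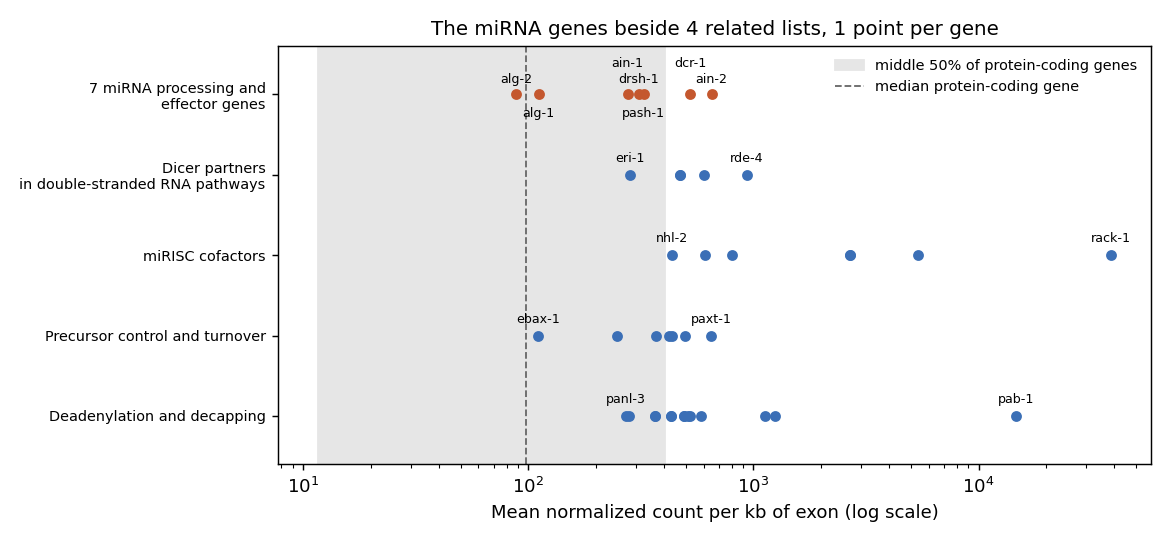
Each point is the pooled mean per kb of exon of 1 gene on a log axis, for the 7 miRNA processing and effector genes (top row) and the 4 lists, with the grey band for the middle 50% of protein-coding genes and the dashed line for their median of 97.3. *alg-1* and *alg-2* sit at the left end of all rows together with *ebax-1*, and *rack-1* and *pab-1* sit at the right end with 38723 and 14741 normalized counts per kb.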

How the data were processed

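N2 animals at the L4 stage were sequenced after HS (35°C for 4 h) or under CTRL conditions (20°C), with 3 libraries each. The authors removed ribosomal RNA with RiboZero Gold, prepared stranded libraries, trimmed reads with fastq-mcf, aligned them with STAR to the WBcel235 build (named WS235 in the methods), counted them on Ensembl genes with FeatureCounts and ran DESeq2. Tool versions are not given in the sources used here. The deposited signal used here is the authors' mean per gene, over all 6 libraries, of counts divided by size factors. The other 5 columns hold the comparison of HS with CTRL by the authors (log2 fold change, standard error, Wald statistic, p-value and adjusted p-value) and were not used. The table has 0 columns for single libraries, so the planned count test was not run, library depth is unknown and no interval is given.

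Symbols were matched by gene identifier. Gene models came from Ensembl release 115 on the same build, which place 30963 of the 31180 genes. The mean was divided by the length of the merged exons in kb, and percentiles were taken among the 18768 protein-coding genes above 0. No test was made. The 7 genes and the lists were chosen with earlier results of these data known. All 7 genes are named, and from each list the highest, the lowest and others whose role is described. Alternatives were the longest transcript, the longest coding sequence or no length, and other genes for the percentiles, including protein-coding genes with a mean of at least 10. The calculations of merged exon length, percentile and median were checked on simulated data with known answers. Python 3.11.15 and matplotlib 3.10.9 were used.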

Additional observations from a re-analysis of the deposited data

How the results depend on the processing

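No spread between libraries was available, so any move of a value is given. With the longest single transcript as length, the ratios were 1.34 for *alg-1* to *alg-2*, 0.421 for *ain-1* to *ain-2* and 0.953 for *drsh-1* to *pash-1*. With the longest coding sequence they were 1.81, 0.406 and 0.874. With no length scaling they were 2.03, 0.348 and 1.26, and the last of these turned to the other side of 1 since the merged exons of *drsh-1* are longer (3410 against 2566 bp). The median percentile of the 7 genes, 69.6 in the report, was 60.2 among protein-coding genes with a pooled mean of at least 10, 79.4 among genes of every biotype and 80.8 with no length scaling. Per kb of the longest coding sequence, the list medians were 498 normalized counts for the Dicer partners, 3080 for the miRISC cofactors, 518 for precursor control and turnover, and 730 for deadenylation and decapping. No paired analysis was possible because the table used here has no values for single libraries, and for the same reason no replicate could be left out and no HS against CTRL test was run. A mean over HS and CTRL cannot show which condition contributed the reads. Lengths come from a later annotation release than the one counted on, and exons that are annotated but rarely used lower a level per kb.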
